A study of Mus musculus with 4 samples.

Results

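A set of 10 genes that control the G1 checkpoint was followed in the RNA-seq counts of alveolar type 2 (AT2) cells, the surfactant-secreting progenitors of the alveolus. They were the D-type cyclins Ccnd1, Ccnd2 and Ccnd3, their partner kinases Cdk4 and Cdk6, and the cyclin-dependent kinase (CDK) inhibitors Cdkn1b, Cdkn1c, Cdkn2a, Cdkn2b and Cdkn2c. Members were chosen by gene symbol, and the 10 symbols matched 10 of the 40092 rows in the count table. All 10 were among the 16661 genes with enough counts to enter the fit. The study asked what loss of Alkbh5, an RNA demethylase that removes m6A, changed in AT2 cells after lung injury. Control libraries (Ctrl, n = 2) came from Alkbh5 flox/+ mice and knockout libraries (A5-CKO, n = 2) from Alkbh5 flox/flox mice. Both genotypes carried Sftpc-CreERT2, a tamoxifen-activated recombinase driven by an AT2 promoter, and the Rosa26-mTmG reporter. All mice received tamoxifen and then bleomycin, a lung-injuring drug, and GFP+ cells were sorted on day 14. The controls therefore also carried Cre and 1 floxed allele, and the GFP+ gate holds AT2 cells together with any cells descended from them. The sample labels name replicates without saying how many mice each held and give no age, so p-values measure the spread between these libraries, which may be technical.

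D-type cyclins bind CDK4 or CDK6 and, in response to growth factors, phosphorylate the retinoblastoma protein, which releases E2F factors and lets a cell pass from G1 into S phase. The INK4 inhibitors, encoded by Cdkn2a, Cdkn2b, Cdkn2c and Cdkn2d, bind CDK4 and CDK6 and keep D cyclins from them. The CIP/KIP inhibitors, encoded by Cdkn1a, Cdkn1b and Cdkn1c, block CDK2 complexes and also help assemble cyclin D with its kinase. AT2 cells are mostly quiescent in the healthy lung and enter the cell cycle after injury.

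The start regions of 4 transcripts are shown because the kinase Cdk4 had the smallest p of the 10 genes, and because the counts of Cdkn2a sum transcripts from separate starts beside Cdkn2b on chromosome 4. Each sequence is the 300 bases around a RefSeq transcript start on GRCm38.p6, most of them upstream, in the direction of the gene. The Cdk4 window is chr10:127063285-127063584 (plus strand), with every CACGTG, the E-box bound by Myc-type factors, in capitals. The Cdkn2b window is chr4:89310983-89311282 (minus strand), with TGACGTCA, the cAMP response element, in capitals. The outer start of Cdkn2a, which gives the p19Arf transcript, lies in chr4:89294570-89294869 (minus strand), and TTTCCCGC, an E2F site form, is in capitals. The inner start, which gives the p16Ink4a transcript, lies in chr4:89282143-89282442 (minus strand) and held no TTTCCCGC.
Cdk4: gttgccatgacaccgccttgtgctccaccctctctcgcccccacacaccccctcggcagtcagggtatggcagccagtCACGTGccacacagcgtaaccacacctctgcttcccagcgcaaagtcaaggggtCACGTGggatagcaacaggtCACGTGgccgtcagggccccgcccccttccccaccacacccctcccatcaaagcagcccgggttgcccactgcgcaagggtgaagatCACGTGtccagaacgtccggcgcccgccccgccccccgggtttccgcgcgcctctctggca
Cdkn2b: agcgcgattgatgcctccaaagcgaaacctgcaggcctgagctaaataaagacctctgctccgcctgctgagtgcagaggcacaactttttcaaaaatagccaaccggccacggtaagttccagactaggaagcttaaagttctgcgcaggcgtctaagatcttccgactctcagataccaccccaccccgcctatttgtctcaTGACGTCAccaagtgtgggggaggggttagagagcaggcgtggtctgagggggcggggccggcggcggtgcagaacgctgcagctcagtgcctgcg
Cdkn2a outer start: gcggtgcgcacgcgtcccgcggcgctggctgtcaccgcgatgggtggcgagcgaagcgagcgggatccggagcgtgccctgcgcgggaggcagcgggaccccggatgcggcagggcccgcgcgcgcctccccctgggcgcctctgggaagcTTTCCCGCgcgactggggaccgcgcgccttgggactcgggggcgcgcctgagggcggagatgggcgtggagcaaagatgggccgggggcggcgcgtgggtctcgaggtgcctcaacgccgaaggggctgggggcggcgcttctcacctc
Cdkn2a inner start: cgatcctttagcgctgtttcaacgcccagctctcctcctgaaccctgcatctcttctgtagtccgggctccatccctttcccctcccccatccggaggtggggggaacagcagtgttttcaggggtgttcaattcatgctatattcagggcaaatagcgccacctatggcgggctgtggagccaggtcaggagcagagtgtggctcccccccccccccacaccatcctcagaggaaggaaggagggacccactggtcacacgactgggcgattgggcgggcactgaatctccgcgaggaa

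RefSeq windows were available for 7 of the 10 genes, and none was available for Ccnd1, Ccnd2 and Cdkn1c, which could not be searched. The Cdk4 window held 4 copies of CACGTG, against at least 1 copy in 7.15% of all 32851 windows and at least 4 copies in 8 of them. Of the other members' windows, those of Cdk6 and of the inner start of Cdkn2c held 1 copy each. TGACGTCA was found in 1.79% of all windows and, among the members, once at Cdkn2b. TTTCCCGC was in 1.07% of all windows and once among the members, at the outer start of Cdkn2a. GGGCGG, the GC box, was in 35.7% of all windows and in at least 1 window of Ccnd3, Cdk4, Cdkn1b, Cdkn2a, Cdkn2b and Cdkn2c. CCAAT was in 37.4% of all windows and was found 3 times at Cdkn1b and once each at Ccnd3, Cdkn2a and Cdkn2c. TTTGGCGC (0.514% of windows) and TGANTCA (7.81% of windows) were in no window of the 7 genes searched. Both strands were searched, none of the 7 motifs contains another, and a match describes these letters only.

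Libraries held 18144865 to 20811757 counts, and a count of 3, used as the floor for detection, corresponded to 0.128 to 0.177 CPM (counts scaled to a common library size with TMM factors). The targeted gene Alkbh5 had 81.7 and 152 CPM in Ctrl 1 and Ctrl 2 and 19.3 and 36.6 CPM in A5-CKO 1 and A5-CKO 2, below both controls in each case. Its log2 fold change was -2.06 (standard error, SE, 0.46; edgeR's quasi-likelihood F test with p-values adjusted by Benjamini-Hochberg over all genes fitted, adjusted p = 0.528), and DESeq2 with default filtering gave -2.02 (adjusted p = 0.0224). AT2 markers summed to 40487 to 92291 CPM, the highest of 10 marker lists in every library. The lists differ in length and in the level of their genes, so this rank does not measure purity. Of the 10 AT2 markers, none at 0, 7 were lower in each A5-CKO library than in each control, against 23.5% of all genes. In bulk RNA, fewer cells of a type and less RNA per cell cannot be told apart.

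Expressed per kilobase of exon, so that genes can be compared, the 10 transcripts spanned about 2 orders of magnitude. Ccnd1 was the most abundant, with a mean over the 4 libraries of 109.6 CPM per kb (73.6 to 151). Cdk4 followed at 35.4 and Ccnd3 at 25.7 CPM per kb. The CIP/KIP gene Cdkn1b stood at 18.3, the INK4 gene Cdkn2b at 14.6 and Cdkn1c at 8.65 CPM per kb. Ccnd2 (4.45) and Cdkn2c (4.43) were close to each other, and Cdkn2a (1.09) and Cdk6 (1.07 CPM per kb) were lowest. Between neighbours in this order the library ranges were separate for Ccnd1 over Cdk4 and for Cdkn2c over Cdkn2a, and they overlapped for the other 7 pairs. With the longest transcript in place of all exons, Ccnd3 passed Cdk4 and the other 8 genes kept their rank. Ccnd1 was thus the leading D cyclin transcript and Cdk4 the leading kinase transcript in the bulk RNA of both genotypes.

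**Figure D1:**
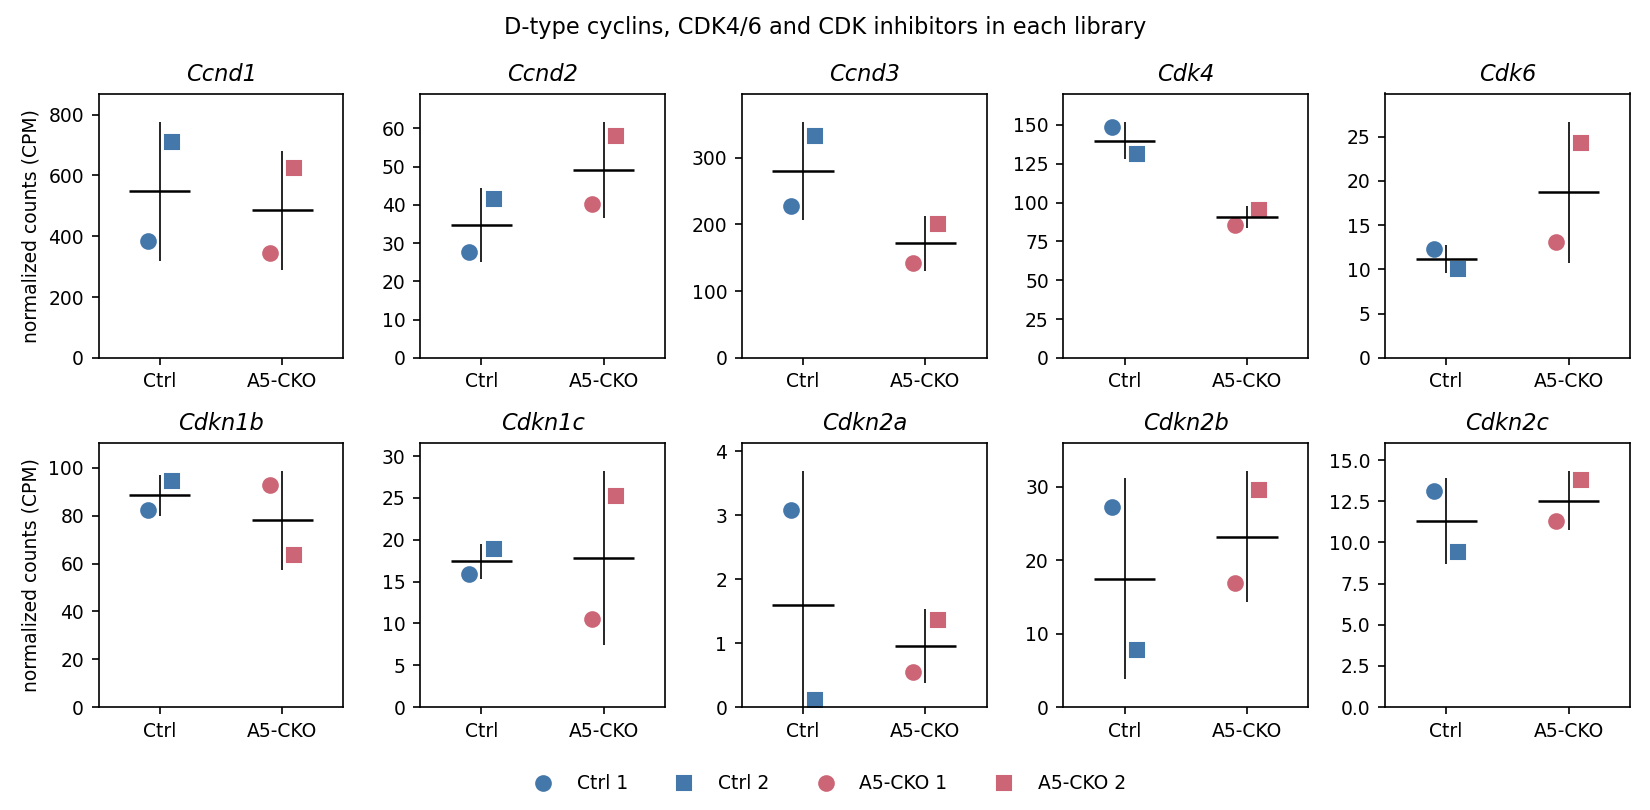
Normalized counts (CPM, linear axes from 0) of the 10 genes in each of the 4 libraries, with 1 panel per gene and its own axis. Points are libraries, horizontal bars are group means and vertical lines are ± 1 SD (n = 2). Ccnd3 and Cdk4 show both A5-CKO points under both Ctrl points, Cdk6 shows both above, and the remaining 7 genes overlap.

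Ccnd1 (chromosome 7, 144929931 to 144939831, minus strand, GRCm38.p6) encodes cyclin D1, the D cyclin most tied to mitogen signals. The controls had 386 CPM (Ctrl 1) and 709 CPM (Ctrl 2), and the knockout libraries had 346 CPM (A5-CKO 1) and 623 CPM (A5-CKO 2). Each genotype thus had a low and a high library, 1.84-fold apart in Ctrl and 1.80-fold apart in A5-CKO, and the genotypes overlapped. Means were 548 ± 229 CPM in Ctrl and 485 ± 196 CPM in A5-CKO (SD, n = 2). For Ccnd1 the log2 fold change of A5-CKO over Ctrl was -0.18 (SE 0.46, 95% interval -1.26 to 0.90; edgeR's quasi-likelihood F test, adjusted p = 0.906). It turned to 0.29 without Ctrl 2 and to 0.17 without A5-CKO 1, and was 0.16 with total counts only, a scaling that moves the median of all genes from -0.02 to 0.30. LTO1 runs antisense across 23.4% of the Ccnd1 exons, and without a stated strand setting for the counting, reads of such pairs are uncertain.

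Ccnd2 (chromosome 6, 127125162 to 127152188, minus strand) encodes cyclin D2. Its values were 27.8 and 41.5 CPM in Ctrl 1 and Ctrl 2 against 40.2 and 58.0 CPM in A5-CKO 1 and A5-CKO 2. A5-CKO 2 was highest and Ctrl 1 lowest, and A5-CKO 1 lay just under Ctrl 2, so that the genotypes overlapped. The means were 34.7 ± 9.72 and 49.1 ± 12.6 CPM, a log2 fold change of 0.50 (SE 0.36, 95% interval -0.35 to 1.35; edgeR's adjusted p = 0.635). Ccnd2 kept a positive difference whichever library was dropped, with 0.18 without A5-CKO 2 and 0.78 without Ctrl 2, and it was 0.20 after a correction for GC and length.

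Ccnd3 (chromosome 17, 47505051 to 47599689, plus strand) encodes cyclin D3. Counts reached 227 and 332 CPM in the controls, with 142 CPM in A5-CKO 1 and 201 CPM in A5-CKO 2. The A5-CKO pair lay below the Ctrl pair, with Ctrl 1 only 1.13-fold above A5-CKO 2. Means were 280 ± 73.8 CPM in Ctrl and 171 ± 41.6 CPM in A5-CKO. For Ccnd3 the log2 fold change was -0.71 (SE 0.36, 95% interval -1.55 to 0.14; unadjusted p = 0.0892, adjusted p = 0.545, edgeR), and leaving out any library gave -1.01 to -0.45. The ratio of Ccnd1 to Ccnd3 per kb was 3.16 and 3.98 in the controls against 4.55 and 5.78 after knockout, and that of Ccnd1 to Ccnd2 was 27.7 and 34.1 against 17.2 and 21.5. Ccnd1 thus led in every library, by a wider margin over Ccnd3 and a narrower margin over Ccnd2 in both A5-CKO libraries. Whether these margins differ between genotypes was not tested, and no correction for GC and length was applied to them.

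Cdk4 (chromosome 10, 127063535 to 127067288, plus strand), the more abundant D-cyclin kinase, had 148 and 131 CPM in Ctrl 1 and Ctrl 2 and 85.5 and 95.4 CPM in A5-CKO 1 and A5-CKO 2. Both knockout libraries were lower than both controls, 1.38-fold apart at the closest. The means of 140 ± 12.1 CPM in Ctrl and 90.4 ± 7.02 CPM in A5-CKO (SD, n = 2) had the smallest spread, relative to their level, of the members whose genotypes separated. The log2 fold change of Cdk4 was -0.63 (SE 0.28, 95% interval -1.31 to 0.05), with an unadjusted p of 0.0635 and an adjusted p of 0.528 in edgeR, the smallest p of the 10 genes. Leaving out each library gave -0.76 to -0.48. With total counts only it was -0.32, and -0.40 once corrected for GC and length, the same direction in each case. Tspan31 runs antisense over 19.7% of the Cdk4 exons and had 2373, 2300, 2072 and 2815 counts over the libraries in the same order, against 2510, 2258, 1888 and 2232 for Cdk4 itself.

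Cdk6 (chromosome 5, 3341004 to 3531008, plus strand), the other D-cyclin kinase, had the opposite order of levels. The controls stood at 12.2 and 10.01 CPM and the knockout libraries 1 and 2 at 13.04 and 24.3 CPM. The A5-CKO libraries were above the controls, but A5-CKO 1 exceeded Ctrl 1 by only 1.07-fold while A5-CKO 2 was 1.87-fold above A5-CKO 1. Means were 11.1 ± 1.58 and 18.7 ± 7.98 CPM, and the log2 fold change of Cdk6 was 0.75 (SE 0.45, 95% interval -0.33 to 1.82; edgeR's adjusted p = 0.579). Without A5-CKO 2 the difference was 0.20, and after GC and length correction it was 0.14. The ratio of Cdk4 to Cdk6 per kb was 52.2 and 56.5 in the controls and 28.2 and 16.9 in the knockout libraries. Cdk4 transcripts therefore outnumbered those of Cdk6 in every library, with a lower ratio in both A5-CKO libraries. These ratios carry no GC and length correction, and their difference between genotypes was not tested.

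Cdkn1b (chromosome 6, 134920401 to 134925525, plus strand) encodes p27, the CIP/KIP inhibitor that accumulates in quiescent cells. It had 82.5 and 94.5 CPM in Ctrl 1 and Ctrl 2 and 92.7 and 63.5 CPM in A5-CKO 1 and A5-CKO 2. A5-CKO 2 was low and A5-CKO 1 fell among the controls, so that the genotypes overlapped. The means were 88.5 ± 8.48 and 78.1 ± 20.6 CPM, and for Cdkn1b the log2 fold change was -0.18 (SE 0.31, 95% interval -0.92 to 0.56; edgeR's adjusted p = 0.858). It was 0.03 without A5-CKO 2 and -0.56 after GC and length correction. Cdkn1c (chromosome 7, 143458339 to 143461059, minus strand) encodes p57, an imprinted CIP/KIP inhibitor. Levels were 16.0 and 18.9 CPM in the controls, 10.5 CPM in A5-CKO 1 and 25.2 CPM in A5-CKO 2. Both A5-CKO libraries lay outside the control range, on opposite sides of it. Cdkn1c means were 17.4 ± 2.08 and 17.8 ± 10.4 CPM, a log2 fold change of 0.03 (SE 0.49, 95% interval -1.13 to 1.2; edgeR's adjusted p = 0.984). It was -0.76 without A5-CKO 2, 0.52 without A5-CKO 1 and -0.01 without Ctrl 1. Gm44732 is annotated antisense over 30.7% of the Cdkn1c exons.

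Cdkn2a (chromosome 4, 89274473 to 89294619, minus strand) encodes p16Ink4a and p19Arf, known as markers of senescent cells, and one row of counts covers both. Ctrl 1 had 52 counts and Ctrl 2 had 2, while A5-CKO 1 had 12 and A5-CKO 2 had 32, which is 3.07, 0.12, 0.54 and 1.37 CPM. Ctrl 2 was under the floor of 3 counts, and the controls enclosed both knockout libraries. Means were 1.60 ± 2.09 and 0.956 ± 0.583 CPM, and the fitted log2 fold change of Cdkn2a was -0.73 (SE 1.26, 95% interval -3.71 to 2.25; edgeR's adjusted p = 0.857). It was 3.04 without Ctrl 1 and -1.71 without Ctrl 2, so the direction rested on which control was kept. The spread between the controls, at similar depth, was wider than the difference between genotypes.

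Cdkn2b (chromosome 4, 89306289 to 89311032, minus strand), the neighbour of Cdkn2a, encodes p15, an INK4 inhibitor that TGF-beta induces. The controls had 27.2 and 7.80 CPM, A5-CKO 1 had 16.9 CPM and A5-CKO 2 had 29.5 CPM. Ctrl 2 stood apart at the bottom, 3.49-fold under Ctrl 1, and the genotypes overlapped. Means were 17.5 ± 13.7 and 23.2 ± 8.94 CPM, a log2 fold change of 0.41 for Cdkn2b (SE 0.62, 95% interval -1.06 to 1.88; edgeR's adjusted p = 0.834). Leaving out Ctrl 1 gave 1.64, with an unadjusted p of 0.0285 and an adjusted p of 0.527 in edgeR. That fit sets Ctrl 2, the lowest library, alone against A5-CKO and assumes that it varies like the A5-CKO pair. In it 5.24% of 18041 genes were higher in A5-CKO at an unadjusted p under 0.05. Without Ctrl 2 the difference was -0.26 and without A5-CKO 2 it was -0.08.

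Cdkn2c (chromosome 4, 109660876 to 109666756, minus strand) encodes p18, a further INK4 inhibitor. Levels were 13.1 and 9.43 CPM in Ctrl 1 and Ctrl 2 and 11.3 and 13.8 CPM in A5-CKO 1 and A5-CKO 2. The 4 libraries lay close together, with Ctrl 2 lowest and A5-CKO 2 highest. Means were 11.3 ± 2.62 and 12.5 ± 1.79 CPM, and for Cdkn2c the log2 fold change was 0.15 (SE 0.43, 95% interval -0.86 to 1.16; edgeR's adjusted p = 0.914). It was -0.11 without Ctrl 2, -0.03 without A5-CKO 2 and 0.47 without Ctrl 1. Apart from Cdkn1b, the 95% interval of every member reached beyond 1 log2 unit in at least 1 direction, so differences of 2-fold or more in that direction lay within it.

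**Figure D2:**
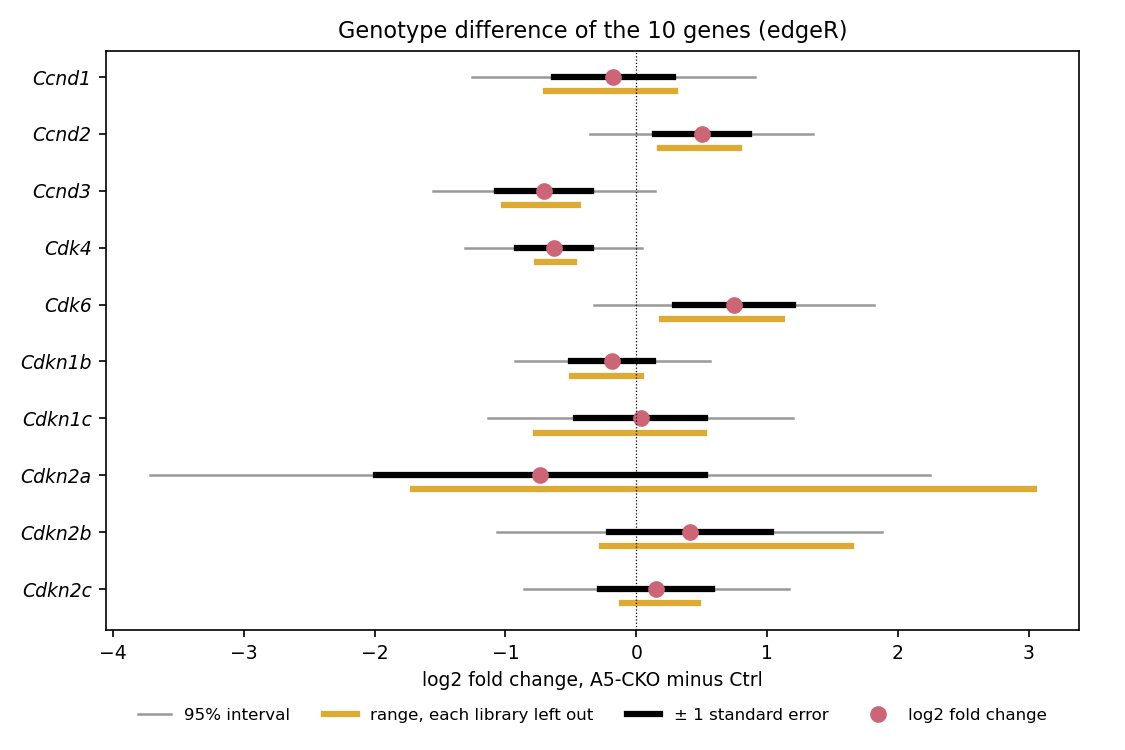
Log2 fold change of A5-CKO over Ctrl (horizontal axis) for the 10 genes from edgeR. Points are estimates, black bars ± 1 SE, grey lines 95% intervals, and yellow bars the range over the fits that leave out a library. Every grey line crosses 0, and the yellow bars of Ccnd2, Ccnd3, Cdk4 and Cdk6 stay on 1 side of it. For Ccnd3, Cdk4 and Cdk6 this follows from the separation of their libraries.

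As a group, 0 of the 10 genes had an adjusted p under 0.05 in edgeR, where 0% of the 16661 genes did. At an unadjusted p under 0.05, 0 of the 10 were found against 9.18% of all genes (4.48% higher and 4.71% lower in A5-CKO). DESeq2 with default filtering called 0 of the 10 against 0.385% of 15306 genes. Cdk6 alone was higher in both A5-CKO libraries (1 of 10, 20.3% of all genes) and Ccnd3 and Cdk4 were lower in both (2 of 10, 23.5% of all genes). These separations use TMM factors. With total counts only, Ccnd3 overlapped between genotypes, while Ccnd2 and Cdkn2c no longer did. In the edgeR fit with TMM factors, log2 fold changes were positive for 5 genes and negative for 5. Their median was -0.07 against -0.02 over all genes. Activators lay on both sides of 0, with negative values for Ccnd1, Ccnd3 and Cdk4 and positive values for Ccnd2 and Cdk6. Of these genes, Ccnd2, Ccnd3, Cdk4 and Cdk6 kept their direction in all 12 alternatives with 4 libraries and with each library left out. The alternatives refit the same 4 libraries. For Ccnd3, Cdk4 and Cdk6, whose genotypes separated, leaving out a library could not turn the direction at given scaling factors, so this adds no support.

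Much of the variation lay between libraries of 1 genotype. The INK4 genes Cdkn2a, Cdkn2b and Cdkn2c and the kinase Cdk6 were all lowest in Ctrl 2. Cdk6, Cdkn2b, Cdkn2c, Ccnd2 and Cdkn1c were highest in A5-CKO 2, and Cdkn2a was highest in Ctrl 1. Ccnd1 and Ccnd3 were highest in Ctrl 2 and lowest in A5-CKO 1. Markers of other cells differed between the same libraries. The 10 macrophage markers, none at 0 in all libraries, summed to 2963 CPM in Ctrl 1 and 2357 in A5-CKO 2 but 501 in Ctrl 2 and 358 in A5-CKO 1. The 8 mesenchymal markers summed to 432 and 157 CPM in Ctrl 1 and Ctrl 2 and to 102 and 1126 CPM in A5-CKO 1 and A5-CKO 2. The 9 markers of transitional cells, the state between AT2 and AT1 cells, summed to 4877 and 2173 CPM in the controls and 3035 and 4665 CPM after knockout. High sums of these 3 lists, and of the lymphocyte and mesothelial lists below, in Ctrl 1 and A5-CKO 2 went with high Cdkn2a and Cdkn2b. Between Ctrl 2 and A5-CKO 1 the order differed by list. Transitional and lymphocyte sums, like Cdkn2a and Cdkn2b, were lower in Ctrl 2. Macrophage, mesenchymal and mesothelial sums were lower in A5-CKO 1. The part of these lists in those values was not tested.

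The 6 endothelial markers summed to 88.7 and 161 CPM in Ctrl and 103 and 162 CPM in A5-CKO. Cldn5 among them was listed at 0 in every library, and whether the annotation or the counting had a part in this was not tested. The endothelial sums were high in Ctrl 2 and A5-CKO 2, as was Ccnd1, and the part of endothelial cells in the Ccnd1 values was not tested. Of the remaining lists, lymphocyte markers summed to 664 and 102 CPM in Ctrl 1 and Ctrl 2 and to 168 and 655 CPM in A5-CKO 1 and A5-CKO 2. Mesothelial markers summed to 126, 49.5, 27.4 and 108.1 CPM in the same order. Both lists were thus also high in Ctrl 1 and A5-CKO 2. AT1 markers summed to 2038 to 2131 CPM in Ctrl and 1874 to 2048 CPM in A5-CKO. Of the 6 AT1 markers tested, 3 were higher (20.3% of all genes) and 1 lower (23.5% of all genes) in both A5-CKO libraries. Their median log2 fold change was 0.69. Club cell markers (2733 to 2868 and 1318 to 1962 CPM) and ciliated cell markers (147 to 158 and 50.9 to 140 CPM) were lower in A5-CKO, as were Cdk4 and Ccnd3, and so were the AT2 markers (66479 to 92291 and 40487 to 48903 CPM). Whether cell composition had a part in the Cdk4 and Ccnd3 values was not tested.

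**Figure D3:**
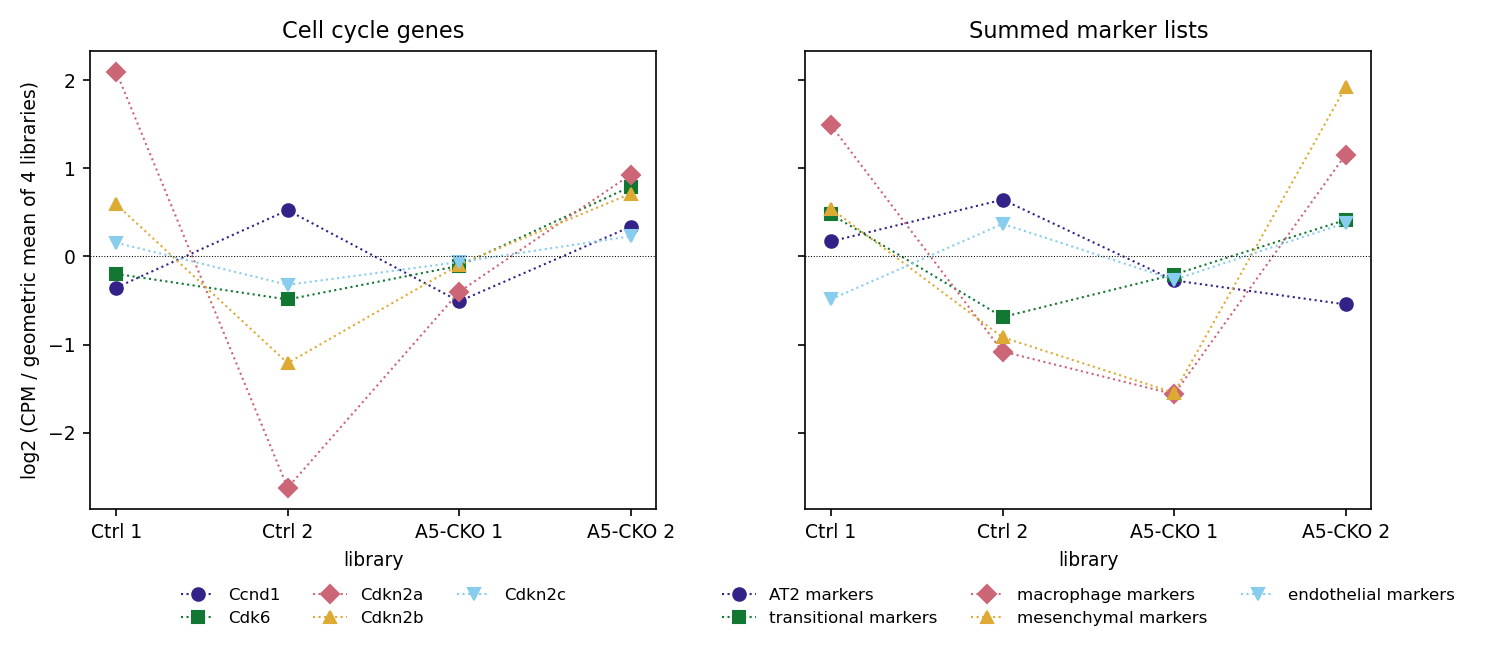
Level of 5 member genes (left) and 5 summed marker lists (right) in each library, as log2 of CPM over the geometric mean of the 4 libraries. Dotted lines join the values of 1 gene or list and carry no order. Cdkn2a and Cdkn2b have their low point in Ctrl 2, while macrophage and mesenchymal markers are low in Ctrl 2 and A5-CKO 1.

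The nearest partners of these genes in G1 control were read in the same fit, from lists of related genes. Of the other CDK inhibitors, Cdkn1a, which encodes the p53 target p21, had 296 and 139 CPM in Ctrl and 344 and 418 CPM in A5-CKO. The A5-CKO libraries were above both controls, and the log2 fold change of Cdkn1a was 0.81 (SE 0.43; edgeR's adjusted p = 0.553), ranging from 0.32 without Ctrl 2 to 1.52 without Ctrl 1. Cdkn2d, the last INK4 gene, had 20.0, 19.8, 16.1 and 20.3 CPM and a log2 fold change of -0.13 (SE 0.36). None of the 5 genes for cyclin E, cyclin A, CDK2 and their activator separated by genotype, with a median of 0.66. Among them Ccna2 had 0.69 (SE 0.48), Ccne1 0.80 (SE 0.77) and Cdk2 -0.01 (SE 0.35). The CDK-activating kinase genes Cdk7 (0.04, SE 0.31), Ccnh (-0.07, SE 0.41) and Mnat1 (0.26, SE 0.40) overlapped between genotypes.

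Of the 13 genes for retinoblastoma proteins and E2F factors, the targets of cyclin D kinases, 4 were higher and 2 lower in both A5-CKO libraries, with a median log2 fold change of 0.09. Over all genes 20.3% were higher and 23.5% lower in this way, and the counts of the lists that follow stand beside the same shares. E2f2 had 86.5 and 96.3 CPM in Ctrl and 44.1 and 54.2 CPM in A5-CKO, with a log2 fold change of -0.89 (SE 0.29; edgeR's unadjusted p = 0.0178, adjusted p = 0.528). Rb1, the retinoblastoma gene, had 22.6 and 22.3 CPM in Ctrl and 35.6 and 39.9 CPM in A5-CKO, and its log2 fold change of 0.75 (SE 0.32) was 0.31 after GC and length correction. Of 9 tested genes for the assembly and turnover of cyclin D and p27, 3 were lower and 1 was higher in both A5-CKO libraries, with a median of -0.23, and Skp2 was listed at 0 in every library, and whether the annotation or the counting had a part in this was not tested. Fbxo31, which targets cyclin D1 for degradation, had -0.77 (SE 0.33), Cdc37, the chaperone partner that loads Cdk4, had -0.57 (SE 0.29), and Skp1 had -0.35 (SE 0.33).

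Among 8 tested regulators of the Ink4 locus, the Polycomb genes that silence it and Kdm6b, which opposes them, 4 were higher and 0 lower in both A5-CKO libraries, with a median of 0.26. Ring1 was listed at 0 in every library, with the same limit as for Skp2. Suz12 had a log2 fold change of 0.70 (SE 0.29; edgeR's unadjusted p = 0.0488), Ezh2 of 0.86 (SE 0.38) and Kdm6b of -0.19 (SE 0.47), and Suz12 was 0.30 after GC and length correction (edgeR's unadjusted p = 0.267). Of 18 genes of S phase and mitosis, 2 were higher and 0 lower in both A5-CKO libraries, and 17 had a positive value, with a median of 0.52. Their summed level was 372 and 329 CPM in the controls, 318 CPM in A5-CKO 1 and 573 CPM in A5-CKO 2, so that A5-CKO 1 was lowest and A5-CKO 2, the library with the highest mesenchymal sum, stood apart. The part of other cells in these values was not tested. Mki67, the marker of cycling cells, had 12.004 and 4.54 CPM in Ctrl and 23.2 and 29.4 CPM in A5-CKO, with a log2 fold change of 1.67 (SE 0.53; edgeR's unadjusted p = 0.0171, adjusted p = 0.528). It was 2.60 without Ctrl 1, 1.09 without Ctrl 2 and 1.08 after GC and length correction, where its unadjusted p in edgeR was 0.117. Ccnb2 had 1.01 (SE 0.62) and Pcna 0.02 (SE 0.32). No gene of these lists had an adjusted p under 0.05 in edgeR or in DESeq2 with default filtering, and at an unadjusted p under 0.05 in edgeR, E2f2, Suz12 and Mki67 were found, 3 of 58 genes against 9.18% of all genes. The values of Cdkn2d, Ccne1, Cdk2, Cdk7, Ccnh, Mnat1, Kdm6b and Pcna changed sign when 1 or 2 of the libraries were each left out.

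**Figure D4:**
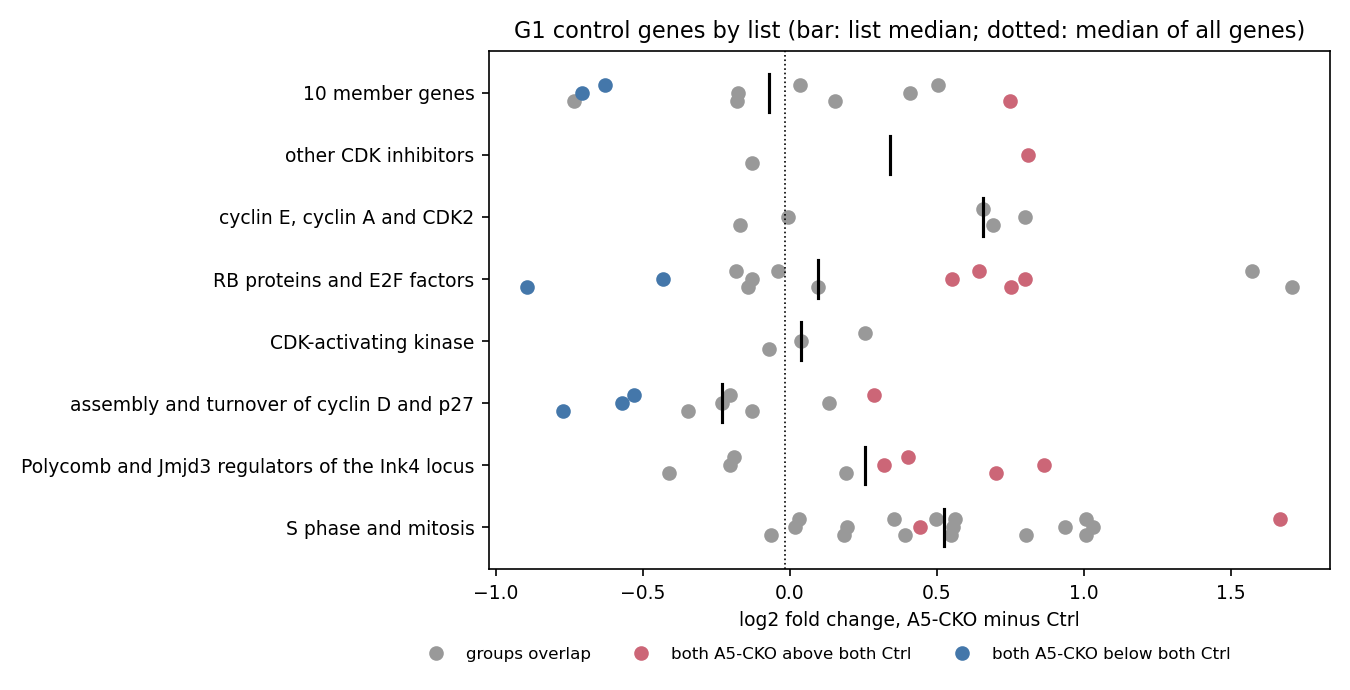
Log2 fold change of A5-CKO over Ctrl (horizontal axis) for each tested gene of the 10 members and of 7 lists of G1 and cell cycle genes. Points are genes, coloured by whether both A5-CKO libraries lay above or below both Ctrl libraries, black bars are list medians, and the dotted line is the median of all genes at -0.02. Members lie on both sides of the line, while 17 of the 18 genes of S phase and mitosis lie above 0, a list whose summed CPM was highest in A5-CKO 2 (573) and lowest in A5-CKO 1 (318).

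Profiles over the 4 libraries were then compared with those of 58 genes from these lists, by the Euclidean distance of centred log2 CPM. Cdk4 lay nearest to Cdc37 (distance 0.11 log2 units), which had 209 and 203 CPM in the controls and 132 and 145 CPM in the knockout libraries. Ccnd3 lay nearest to Fbxo31 (0.22), with 49.6 and 73.5 against 33.5 and 38.5 CPM. Ccnd1 was nearest to Mcm2 (0.24) and Ccnd2 to Mcm4 (0.19), both helicase subunits of DNA replication. Cdkn1b was nearest to E2f5 (0.05) and Cdkn2c to Rnf2 (0.10), the closest matches of the 10. Cdk6 was nearest to Cdc20 (0.21), Cdkn1c to Mcm5 (0.23), Cdkn2b to Ccne2 (0.49) and Cdkn2a to Cks1b (1.16), the last far from every candidate. With 4 libraries many genes share such a profile, and the distances are a description.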

How the data were processed

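RNA-seq libraries of sorted AT2 cells from 2 Ctrl and 2 A5-CKO samples were analysed, grouped by the genotype in the sample labels. The deposited values are whole read counts per gene without normalization. The authors trimmed reads with Trim Galore 0.6.10, mapped them to mm10.p6 with HISAT2 2.2.1, removed duplicates with sambamba and counted with featureCounts 2.0.3 on an NCBI annotation. The Methods describe the counting under MeRIP-seq, and the strand setting is not given in the sources used here. They describe a ribosomal RNA removal under RNA-seq, beside peak calling, so whether these counts had that step is not clear from the Methods.

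Counts were fitted with edgeR 4.0.16 in R 4.3.3 (TMM factors, filterByExpr with a minimum count of 10 and total of 15, glmQLFit, glmQLFTest, prior count 0.125), and p-values were adjusted by Benjamini-Hochberg over the 16661 genes that passed. Standard errors are the log2 fold change over the square root of F. Alternatives were other scaling factors, filters, a robust fit, a prior count of 2, DESeq2 1.42.0, limma 3.58.1 (voom), a block for replicate number, splines (4 degrees of freedom) for GC content and length over 15237 genes, and each library left out. The fit was tested on simulated counts. Total counts of 18144865 to 20811757 per library put the floor of 3 counts at 0.128 to 0.177 CPM, for counting error alone. Within a genotype the libraries differed beyond sampling noise (chi-square over degrees of freedom 109.8 in Ctrl and 96.4 in A5-CKO), and the biological coefficient of variation was 41.6%. Levels per kb use the merged exons of GENCODE M21. Coordinates and promoter sequences are from RefSeq on GRCm38.p6, the build of mm10.p6.

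The text names the 10 members, Alkbh5, and from each list of related genes the 2 with the smallest unadjusted p and the 1 with the highest mean CPM, or the whole list where it holds up to 3 genes. For each member it also names the listed gene with the nearest profile. Members, lists and marker lists were chosen with earlier results of these data known. The m6A and single-cell data were not analysed here.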

Additional observations from a re-analysis of the deposited data

How the results depend on the processing

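No member had an adjusted p under 0.05 in any of the 12 alternatives with all 4 libraries or with a library left out, and at an unadjusted p under 0.05 there were 0 members, or 0 to 1 with a library left out (Cdkn2b without Ctrl 1). Over all genes edgeR and voom called 0 at an adjusted p under 0.05, with 746 (without A5-CKO 1) to 1877 genes at an unadjusted p under 0.05, and DESeq2 called 55 of the same genes, or 59 by its default filtering. Alkbh5 passed in DESeq2, with -2.01 and -2.02. The cause was not tested. The median log2 fold change of the members was 0.26 with total counts only, and with a library left out it was lowest (-0.39) without A5-CKO 2 and highest (0.23) without A5-CKO 1. Cdkn2a could not be fitted with at least 10 counts in every sample, where 9 members remained, and Skp1 had no value under the GC and length correction.

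Ccnd2, Ccnd3, Cdk4 and Cdk6 had 1 direction throughout, in fits that all draw on the same 4 libraries. With total counts only, values turned to 0.16 for Ccnd1, 0.14 for Cdkn1b, 0.19 for Cdkn2d, 0.15 for Kdm6b, 0.24 for Ccnh and 0.32 for Cdk2. Cdk2 was also 0.042 with RLE factors, 0.039 with at least 10 counts, 0.041 and 0.024 in DESeq2 without and with default filtering, 0.013 in voom and 0.095 with upper-quartile factors, where Ccnh was 0.017. Pcna was -0.012 without a filter. In voom, Cdkn1c was -0.087 and Cdkn2a 0.42. With the GC and length correction, Cdkn2d was 0.21, Cdk7 -0.11 and Mnat1 -0.19.

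With each library left out, ranges that crossed 0 were -0.69 to 0.29 for Ccnd1, -0.49 to 0.034 for Cdkn1b, -0.76 to 0.52 for Cdkn1c, -1.71 to 3.04 for Cdkn2a, -0.26 to 1.64 for Cdkn2b, -0.11 to 0.47 for Cdkn2c, -0.34 to 0.017 for Cdkn2d, -0.53 to 1.46 for Ccne1, -0.19 to 0.24 for Cdk2, -0.12 to 0.14 for Cdk7, -0.47 to 0.20 for Ccnh, -0.045 to 0.63 for Mnat1, -0.67 to 0.60 for Kdm6b and -0.26 to 0.37 for Pcna.

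Replicate numbers only name these libraries, since no label ties a number to a litter or day, and the deviations of same-numbered libraries from their group means correlated at -0.35 over 16661 genes. With the replicate number as a block, 754 genes had an unadjusted p under 0.05 against 1530 without it, 0 members were called, and values turned for Cdkn1c (-0.093), Cdkn2a (0.15) and Cdk2 (0.015).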
